A study of Homo sapiens with 8 samples.

Results

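The genes described here are those whose symbols place them in the HOX, PAX, SOX, FOX, TBX, NKX or LHX families, which encode transcription factors of embryonic development. The rule used symbols alone and no measured value, but it was chosen with earlier results of these data known. It found 155 of 20033 protein-coding genes of GENCODE release 44. It also took in FOXL2NB, a neighbour of FOXL2 that is no forkhead factor and is counted here among the FOX genes. Binding was scored at the promoter region of each transcript, taken as 1000 bp before and 500 bp after its transcription start site (TSS), and 1 overlapped region was enough for a gene to be called bound. By this measure PHF20 bound 16 of the 155 genes, or 10.3%, with a Wilson 95% interval of 6.45% to 16.1%. Over all coding genes the share was 20.7%. PHF20L1 bound 3 of the 155, or 1.94% (0.66% to 5.54%), against 3.82% over all coding genes. Every gene bound by PHF20L1 was also bound by PHF20.

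The peaks came from chromatin immunoprecipitation followed by sequencing (ChIP-Seq) with an antibody against the HA peptide tag in U2OS, a human osteosarcoma cell line that ectopically overexpressed 3xHA-tagged PHF20 or PHF20L1. The cells had been sorted for GFP, per the study's methods. The series holds 2 ChIP libraries of N-terminally tagged PHF20 and 1 input library without antibody. PHF20L1 has 3 ChIP libraries, 1 from N-terminally and 2 from C-terminally tagged protein, and 2 input libraries. Per the study's methods, more PHF20 replicates were sequenced than the 2 analysed here, and one that gave few peaks was left out. The authors merged the replicates into 1 list of positions per protein, with 4147 peaks for PHF20 and 723 for PHF20L1 and no height, score or value per library, so a spread between replicates and the depth behind a peak cannot be given. All intervals below cover counting error only, and the identity of the cells cannot be checked from peak positions.

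PHF20 and PHF20L1 hold Tudor domains that read methylated lysines, and each is a subunit of the nonspecific lethal (NSL) complex, in which the acetyltransferase KAT8 acetylates histone H4 at promoters of housekeeping genes. Developmental factor genes share with housekeeping genes a promoter rich in unmethylated CpG dinucleotides, the CpG island, but they are transcribed in few cell types and are classical targets of Polycomb repression where they are silent. HOX genes lie in clusters and specify position along the body axis through their homeodomain. PAX, NKX and LHX proteins also bind DNA mainly through a homeodomain, a paired domain or both, SOX proteins through an HMG box, FOX proteins through a forkhead domain and TBX proteins through a T-box. The comparison addresses whether CpG-rich promoters of this second kind carried peaks as often as other promoters of the same CpG content.

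The label of a CpG-island promoter was checked on the sequence. The CpG observed/expected ratio, which is the number of CpG dinucleotides divided by the number that the C and G content alone would give, was computed over the promoter region of the canonical transcript. Its median was 0.71 in the 155 genes (quartiles 0.57 and 0.83) and 0.67 in the 19878 other coding genes (0.38 and 0.78). A ratio of at least 0.6 together with a GC content of at least 50% was met over the whole region by 113 of the 155 genes (72.9%), against 57.1% of the others. A stretch of 200 bp that met both limits was present in 145. The 10 genes without such a stretch were FOXH1, FOXP2, FOXP3, FOXR2, HOXB3, PAX4, SOX6, SOX10, TBX19 and TBX22, for which the label does not hold at the canonical TSS. The families differed in this respect, since the median ratio was lowest in the HOXC genes at 0.55 and highest in the HOXD genes at 0.82.

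**Figure D1:**
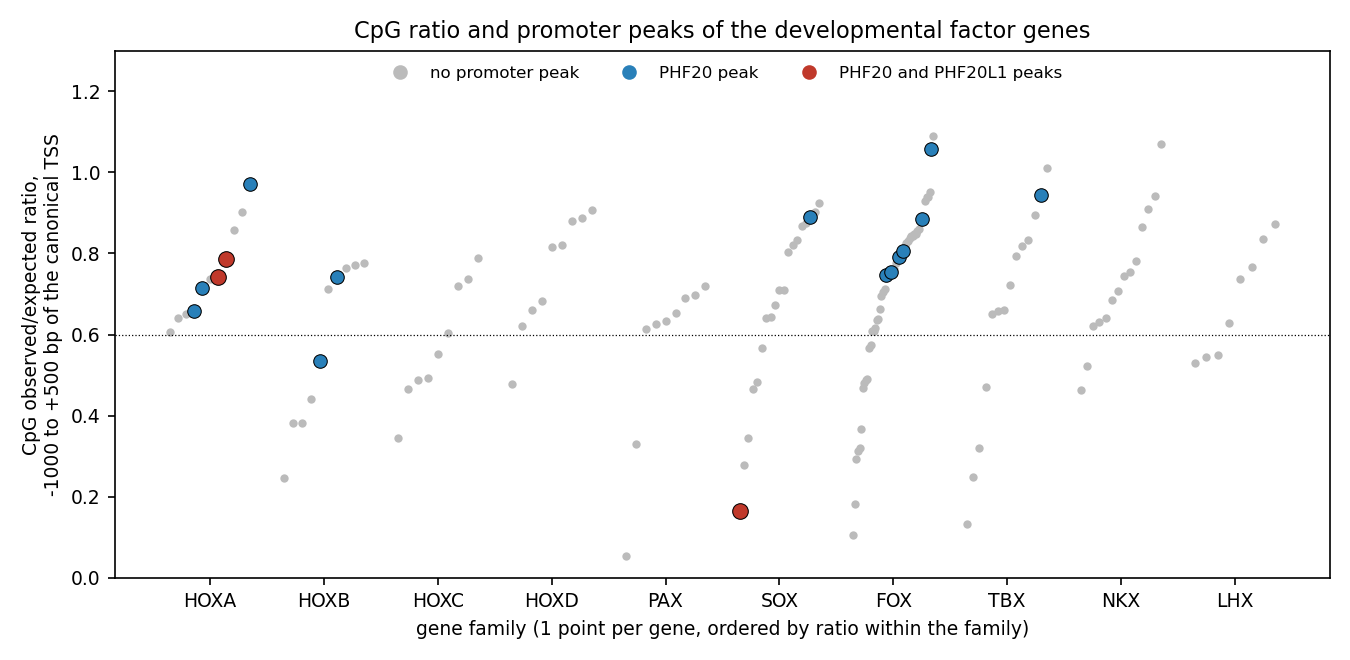
CpG observed/expected ratio of each of the 155 genes (vertical axis, no unit) by family, with 1 point per gene ordered by ratio and coloured by its promoter peaks; the dotted line marks a ratio of 0.6. Blue and red points, with PHF20 alone and with both proteins, are the 16 bound genes, of which all but HOXB13 at 0.53 and SOX6 at 0.16 lie above the line.

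To compare promoters of equal CpG content, all coding genes were divided into 10 classes of this ratio, and the bound share of the other coding genes was weighted by the number of developmental factor genes in each class. Other coding genes of equal ratio were bound by PHF20 in 23.9% of cases (SE 0.33 percentage points, counting error), which corresponds to 37 of 155 genes where 16 were found, a ratio of 0.432. For PHF20L1 the share was 4.31% (SE 0.16), or 6.68 genes where 3 were found, a ratio of 0.449. The PHF20 value lay above the interval of the measured share, whereas the PHF20L1 value lay inside it. Among genes in the upper 5 classes of the ratio, PHF20 bound 13 of 89 developmental factor genes (14.6%, 8.74% to 23.4%) and 30.8% of the 9928 others (29.9% to 31.7%). In the lower 5 classes it bound 3 of 66 (4.55%, 1.56% to 12.5%) and 10.8% of the others (10.2% to 11.4%). In the other coding genes the bound share rose from 2% in the lowest class to 30.5% in class 6 and stayed between 30.0% and 31.6% above it. In the developmental factor genes it was 0 of 18 in class 9 and 5 of 27 in class 10, so that high CpG content did not go with a steady rise. No test was run on this list, since its genes were chosen by name, belong to a few families and partly lie next to each other.

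**Figure D2:**
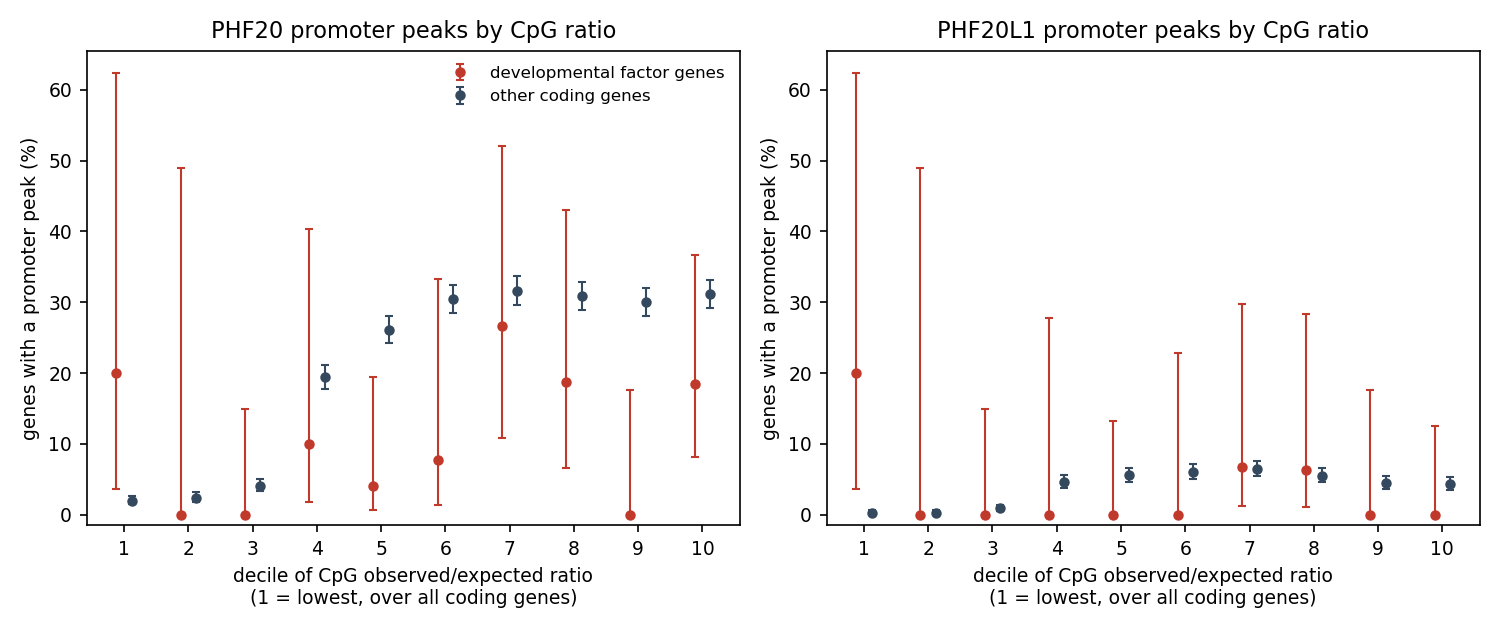
Percent of genes with a promoter peak of PHF20 (left) and PHF20L1 (right) in 10 classes of CpG observed/expected ratio, for the 155 developmental factor genes (red) and the 19878 other coding genes (dark blue), with Wilson 95% intervals. For PHF20 the red point lies below the dark blue one in each class from 2 to 10, with few genes in the lowest classes.

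Other properties of the promoters moved with the bound share and were set beside it. Developmental factor genes had a median of 2 annotated TSSs and the others 5, and more TSSs give more regions in which a peak can fall. With 5 or more TSSs, 8 of 33 developmental factor genes were bound by PHF20 (24.2%, 12.8% to 41.0%), close to the 26.8% of the others. With 2 to 4 TSSs it was 5 of 67 (7.46%, 3.23% to 16.3%) against 15.4%. With 1 TSS it was 3 of 55 (5.45%, 1.87% to 14.9%) against 8.23%. In each of these groups by number of TSSs the interval contained the share of the others. When the classes of CpG ratio were divided further by the number of TSSs, which was chosen after these values were seen, the share from other coding genes was 20% (SE 0.481). A TSS of another gene, coding or noncoding, on the opposite strand within 1000 bp was present at 45 of the 155 genes (29.0%) and at 29.1% of the others. Of these 45 genes PHF20 bound 4 (8.89%, 3.51% to 20.7%), whereas it bound 34.8% of the others with such a neighbour. The neighbours were not matched by type, and many at the developmental factor genes were antisense or other noncoding genes. Without one, 12 of 110 were bound (10.9%, 6.35% to 18.1%), against 15%. At the canonical TSS alone PHF20 bound 13 of the 155 genes, or 8.39%, where the share over all coding genes was 19.1%.

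Bound counts differed among the families, although the wide Wilson intervals of their PHF20 shares all overlap. PHF20 bound 5 of 11 HOXA genes (45.5%, 21.3% to 72.0%), where other coding genes of equal CpG ratio gave 29.2%. It bound 2 of 10 HOXB genes (20%), with 18.9% in the others, and 6 of 52 FOX genes (11.5%, 5.40% to 23%), with 24.5% in the others. Of 19 SOX genes 2 were bound, with 22.4% in the others, and of 14 TBX genes 1 was bound, with 21.9% in the others. None of the 18 HOXC and HOXD genes had a promoter peak of either protein, which allows a share of up to 33.3% in each of these families of 9. For PHF20 other genes of equal ratio gave 16.6% for HOXC and 26.7% for HOXD, the family with the highest median ratio. Both values lie within what the counts allow. None of the 31 PAX, NKX and LHX genes had one either, which allows up to 33.3%, 21.4% and 37.5% respectively. For PHF20 other genes of equal ratio gave 22.6%, 27.3% and 26%, of which only the NKX value lay above what its count allows. Outside the HOXA cluster PHF20 bound 11 of 144 genes (7.64%, 4.32% to 13.2%) and 23.5% of other genes of equal ratio. The cluster was set aside with its peaks known, which lowers the share of the rest by construction. PHF20L1 peaks were found at 2 HOXA genes and 1 SOX gene. The 125 genes outside HOXA and SOX held 0 by construction, so no upper limit is given for them.

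**Figure D3:**
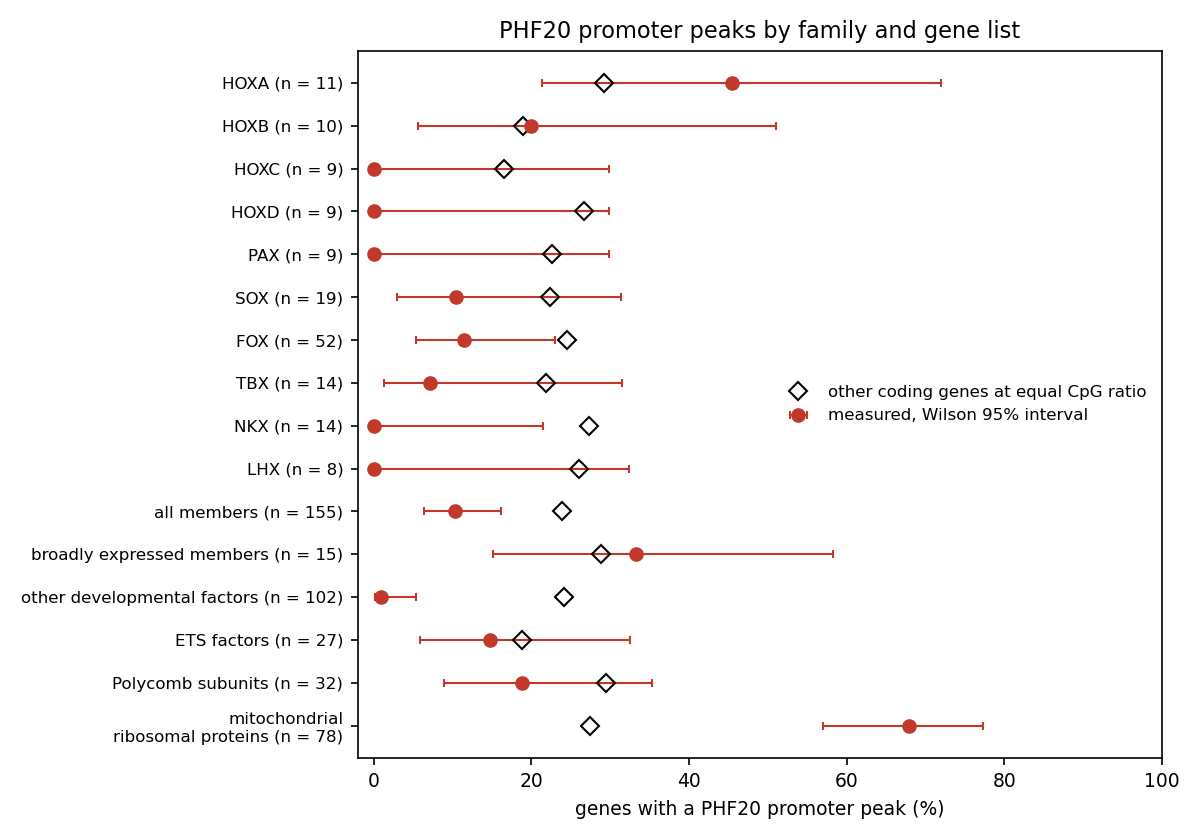
Percent of genes with a PHF20 promoter peak (horizontal axis) in each family and in the gene lists set beside them, with Wilson 95% intervals (red), and the percent in other coding genes of equal CpG ratio (open diamonds). The measured point lies right of the diamond for HOXA, HOXB, the broadly expressed members and the mitochondrial ribosomal proteins, and left of it for the rest.

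The HOXA cluster on chromosome 7 of hg38, from 27092993 to 27200091, held 8 PHF20 peaks and 2 PHF20L1 peaks. All 8 lay within 54511 bp in its middle, from 27130164 to 27184674, with gaps of 64 to 19041 bp between them. The next PHF20 peaks on the chromosome were 930 kb away on the lower side and 1995 kb away on the upper side. Over a length equal to that of the cluster, 107099 bp, the median stretch that began at a PHF20 peak held 1 peak. Of 4147 such stretches, 2 held as many as 8 peaks, namely the one at HOXA and one on chromosome 8 in which 9 coding genes were bound, LRRC14 and RECQL4 among them. The cluster had been picked out for this comparison after its peaks were seen. HOXB, which spans 200225 bp, held 2 PHF20 peaks, HOXD held 1 that reached no promoter region, and HOXC held 0, with the nearest PHF20 peak 262497 bp away.

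**Figure D4:**
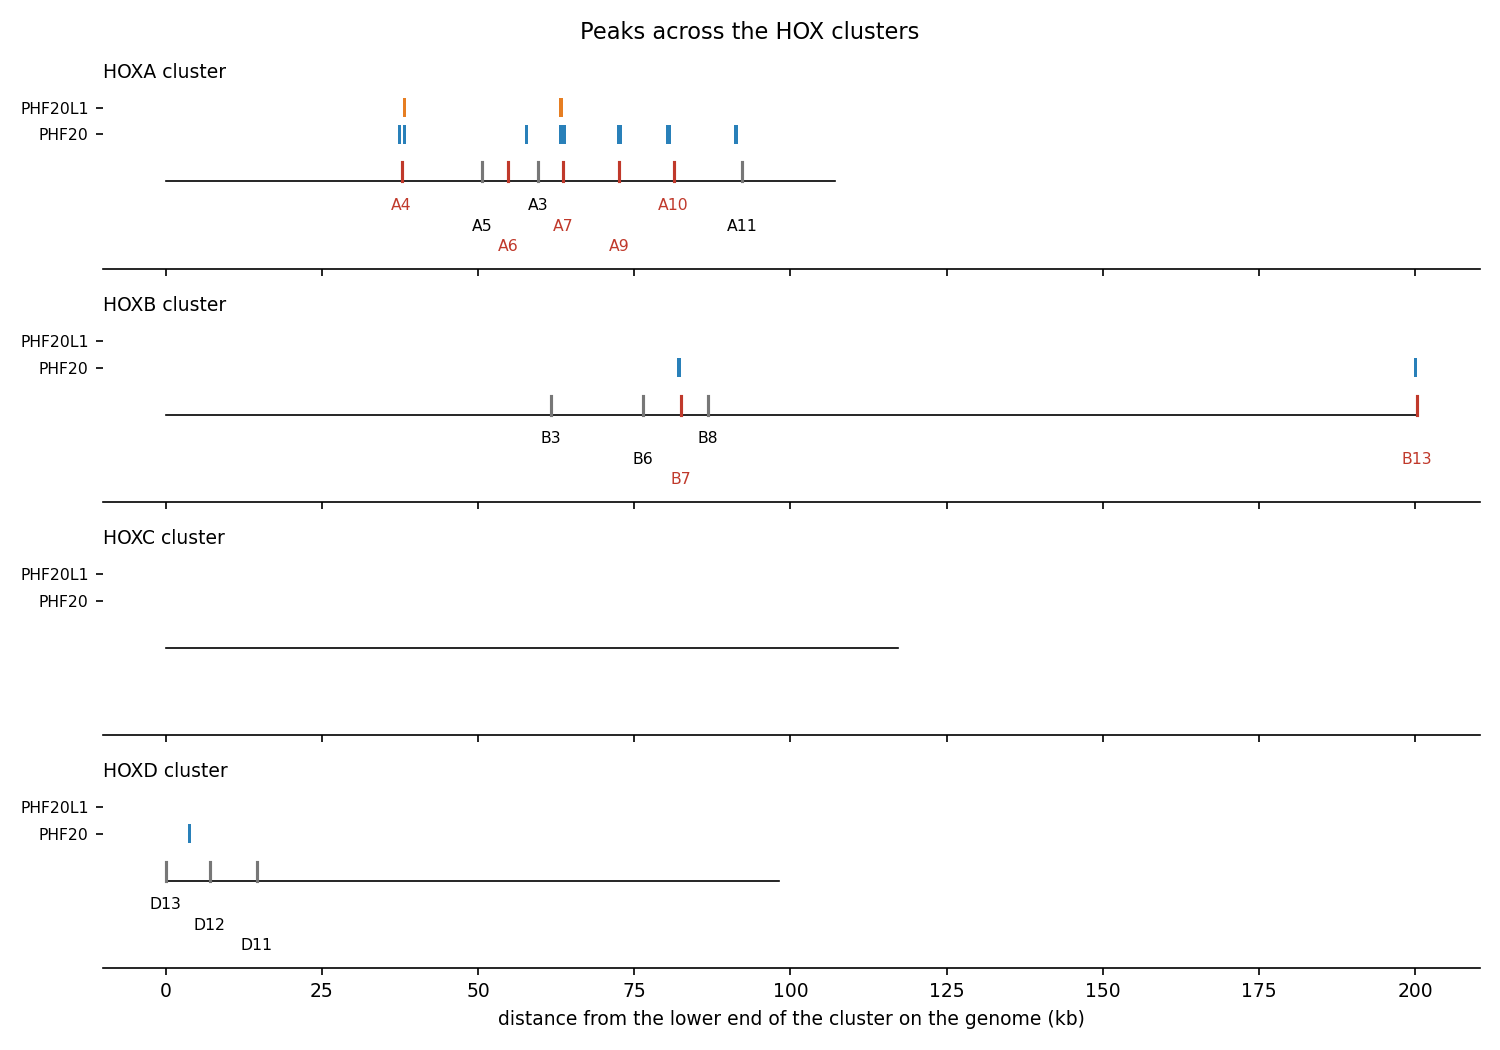
PHF20 peaks (blue) and PHF20L1 peaks (orange) along the 4 HOX clusters, against the distance in kb from the lower end of each cluster; upright marks are canonical TSSs of genes with a TSS within 10000 bp of a PHF20 peak, in red for genes with a promoter peak, and peaks narrower than 0.45 kb are drawn at that width. The 8 PHF20 peaks of HOXA run from HOXA4 to HOXA11, and the HOXC cluster holds no peak.

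HOXA4 (ENSG00000197576.15) stands towards the anterior-specifying side of the cluster and held 2 PHF20 peaks. The first, of 232 bp from 27130164 to 27130395, lay with its centre in the coding sequence, 478 bp downstream of the canonical TSS. The second, of 478 bp from 27130945 to 27131422, lay upstream of the gene and overlapped a PHF20L1 peak of 237 bp from 27131013 to 27131249. HOXA7 (ENSG00000122592.8) had the widest peaks of the cluster, with 1018 bp for PHF20 from 27156006 to 27157023 and 527 bp for PHF20L1 from 27156004 to 27156530. Their lower edges lay 2 bp apart, and the PHF20 peak spanned the canonical TSS at 27156675 while the PHF20L1 peak lay inside the gene. These widths were at percentiles 83.8 and 89.3 of the respective lists.

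HOXA9 (ENSG00000078399.19) held 2 PHF20 peaks only 64 bp apart, of 214 bp from 27165300 to 27165513 centred in its coding sequence and of 403 bp from 27165578 to 27165980 upstream of the canonical TSS. HOXA10 (ENSG00000253293.6) held 1 of 795 bp from 27173070 to 27173864, centred in the coding sequence 853 bp downstream of the canonical TSS and 504 bp upstream of the nearest of its other TSSs. HOXA6 (ENSG00000106006.6) held 1 of 463 bp from 27150464 to 27150926. The centre of this peak lay at -2921 bp from the canonical TSS, at the start of a transcript without a defined coding sequence, so that HOXA6 was not bound at its canonical promoter, and it also reached a promoter region of the antisense gene HOXA-AS3. The eighth peak, of 767 bp from 27183908 to 27184674, lay inside HOXA11, with its nearer edge 549 bp downstream of a TSS of that gene. It reached a promoter region of HOXA11-AS, which is transcribed opposite to HOXA11. HOXA5 and HOXA13 had no promoter peak, although the ratio of HOXA5 (0.90) and HOXA13 (0.86) was above that of all bound HOXA genes except HOXA9 (0.97).

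HOX paralogues, which stand at the same place in different clusters and encode similar homeodomains, carried peaks together in group 7 and not in the other groups. HOXB7 (ENSG00000260027.5, chromosome 17) held a PHF20 peak of 655 bp from 48610327 to 48610981, as did its paralogue HOXA7, and the CpG ratio was 0.74 at both. This peak was centred in the coding sequence 363 bp downstream of the TSS. Group 9 had a peak at HOXA9 alone, while HOXB9 (ratio 0.71), HOXC9 (0.79) and HOXD9 (0.89) had none. In group 4 HOXA4 (0.79) was bound and HOXB4 (0.77), HOXC4 (0.47) and HOXD4 (0.48) were not, and in group 13 only HOXB13 (0.53), which has the lowest ratio of the group, was bound. HOXB13 (ENSG00000159184.8), a factor known from prostate and hindgut, held a narrow peak of 223 bp on chromosome 17 from 48728405 to 48728627, centred in its coding sequence.

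Sequences of 120 bp from the regions shared by PHF20 and PHF20L1 at HOXA4, HOXA7 and SOX6 are shown on the strand of the gene, with CpG dinucleotides in capitals, beside the 120 bp before the TSS of FOXI3 and NKX6-2, the unbound genes of highest ratio. They show how far CpG density differed among the shared regions, and that CpG-dense promoters could lack a peak. The HOXA4 stretch (hg38 chr7:27131071-27131190, minus strand) holds 4 CpGs and the HOXA7 stretch (chr7:27156208-27156327, minus strand, in the coding sequence) holds 16. The SOX6 stretch (chr11:16738779-16738898, minus strand) holds 5, the FOXI3 stretch (chr2:88452694-88452813, minus strand) 16 and the NKX6-2 stretch (chr10:132786148-132786267, minus strand) 25. The SOX6 stretch partly overlaps annotated coding sequence, which was looked up without regard to gene or strand. C11orf58 lies on the opposite strand there, so the stretch is not shown to code for SOX6.
HOXA4: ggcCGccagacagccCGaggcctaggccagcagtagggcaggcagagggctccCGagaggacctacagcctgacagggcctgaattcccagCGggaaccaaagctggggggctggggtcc
HOXA7: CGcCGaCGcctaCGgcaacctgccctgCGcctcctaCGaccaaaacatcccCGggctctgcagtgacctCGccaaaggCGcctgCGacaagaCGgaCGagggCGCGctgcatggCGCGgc
SOX6: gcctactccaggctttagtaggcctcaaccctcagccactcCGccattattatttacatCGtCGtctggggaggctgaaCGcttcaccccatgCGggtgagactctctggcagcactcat
FOXI3: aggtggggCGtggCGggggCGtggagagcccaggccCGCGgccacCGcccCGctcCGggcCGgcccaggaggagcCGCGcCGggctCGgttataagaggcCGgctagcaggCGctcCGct
NKX6-2: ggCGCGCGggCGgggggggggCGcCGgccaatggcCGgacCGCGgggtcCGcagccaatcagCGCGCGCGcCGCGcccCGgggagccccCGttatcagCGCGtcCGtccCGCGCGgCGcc
The unbound genes were picked for their ratio and the bound stretches for overlap of the proteins, so the difference in CpG number between them is a matter of choice. Among bound genes FOXK2, with a ratio of 1.06, was close to NKX6-2 with 1.07.

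SOX6 (ENSG00000110693.19, chromosome 11), a factor of cartilage and red cell development, was the only gene outside HOXA with peaks of both proteins. Its PHF20 peak of 995 bp from 16738198 to 16739192 and its PHF20L1 peak of 296 bp from 16738668 to 16738963 were centred at -382149 and -382269 bp from its canonical TSS, at an outlying promoter where the PHF20 peak reached 3 of 19 SOX6 transcripts. The same peaks lay at the promoter of C11orf58, which is transcribed in the opposite direction and whose TSS was nearer to the PHF20 centre (36 bp, against 52 bp for SOX6). At the canonical TSS the CpG ratio was 0.16, and the highest ratio at any SOX6 TSS was 0.80. The peak positions do not tell which of the 2 genes the binding belongs to. Counting no peak that also reached another coding gene's promoter left 14 of the 16 genes for PHF20 (9.03% of the 155, against 13% of all coding genes) and 2 of the 3 for PHF20L1 (1.29% against 2.25%). The PHF20 shares thus lay nearer to each other than the 10.3% and 20.7% with all peaks. Other coding genes bound by PHF20 had shared peaks alone more often, in 37.3% (35.8% to 38.8%), against 2 of 16 (12.5%, 3.50% to 36.0%).

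FOXM1 (ENSG00000111206.13, chromosome 12), which drives genes of mitosis, was the other gene with a shared peak. This peak, of 1466 bp from 2876334 to 2877799, was the widest at any of the 155 genes, at percentile 98.5 of PHF20 peaks, and it also reached the promoters of RHNO1, a DNA damage checkpoint gene, and TULP3, a gene of ciliary transport. FOXJ3 (ENSG00000198815.9, chromosome 1) held a peak of 1065 bp from 42334747 to 42335811 that spanned its canonical TSS, 44 bp from the peak centre. FOXK2 (ENSG00000141568.21, chromosome 17) held one of 456 bp from 82519160 to 82519615, upstream of the gene, at a promoter of ratio 1.06, the highest among the bound genes. FOXP1 (ENSG00000114861.24, chromosome 3), a repressor with 71 annotated transcripts, held one of 408 bp from 71582998 to 71583405 in an intron, reaching the promoter regions of 16 of them. FOXP4 (ENSG00000137166.18, chromosome 6), its relative, held one of 328 bp from 41545564 to 41545891 that was centred at -654 bp from the canonical TSS of FOXP4 and only 416 bp from a TSS of the antisense gene FOXP4-AS1. FOXD2 (ENSG00000186564.6, chromosome 1), a factor of kidney and neural crest, held one of 267 bp from 47437248 to 47437514, centred 663 bp upstream of its TSS.

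These 6 FOX genes divide by how widely they are known to be expressed. A list of 15 members known from textbooks as broadly expressed, which was not drawn from expression data, held FOXJ3, FOXK2, FOXM1, FOXP1 and FOXP4, so that 5 of 15 were bound by PHF20 (33.3%, 15.2% to 58.3%), with 28.8% in other coding genes of equal CpG ratio. The 10 broadly expressed members without a peak were FOXJ2, FOXK1, FOXN2, FOXN3, FOXO1, FOXO3, FOXO4, SOX4, SOX12 and SOX13. Of the 140 remaining members 11 were bound (7.86%, 4.44% to 13.5%), with 23.4% in genes of equal ratio. The list was made with earlier results of these data known, so the gap between the shares is no independent evidence. PHF20L1 bound 0 of the 15, which allows up to 20%. Expression in U2OS cells was not analysed here.

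SOX17 (ENSG00000164736.6), a factor of endoderm and blood vessels, and TBX18 (ENSG00000112837.17), a factor of the outer heart layer and the ureter, complete the bound set. The SOX17 peak of 377 bp on chromosome 8, from 54457936 to 54458312, began 1 bp downstream of the single annotated TSS of the gene. The TBX18 peak of 428 bp on chromosome 6, from 84763054 to 84763481, was centred 1331 bp downstream of the canonical TSS and 88 bp from another TSS of the gene. With HOXA6 and SOX6, TBX18 was thus 1 of 3 genes bound only at TSSs that are not canonical (3 of 16, 18.8%, 6.59% to 43.0%), against 7.60% of other bound coding genes (6.83% to 8.45%).

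The peaks at these genes contained a TSS less often than those at other coding promoters, before width and the number of TSSs were considered. The median width of the 18 PHF20 peaks was 442 bp (95% order-statistic interval 328 to 795 bp, range 214 to 1466 bp), against 636 bp for 3546 peaks at other coding promoters (620 to 658 bp). The order-statistic interval of the 18 peaks reaches past the value of the others, so a difference in width is not shown. A TSS of the gene itself lay inside 8 of the 18 peaks (44.4%, 24.6% to 66.3%), whereas 79.3% of the peaks at other coding promoters contained one (78.0% to 80.6%). Narrow peaks contain a TSS less often, and among peaks under 599 bp, the median of all PHF20 peaks, the values were 4 of 12 (33.3%, 13.8% to 60.9%) and 59.9% (57.5% to 62.3%). The interval of these 12 peaks contains the share of the others. Bound developmental factor genes had a median of 5 annotated TSSs and other bound coding genes 8. At other promoters a TSS of any coding gene that the peak reached was counted. What part these differences have in the shares was not tested. The centre lay in coding sequence in 6 of 18 peaks (33.3%, 16.3% to 56.3%), against 13.9% at other promoters (12.8% to 15.1%). All 6 belonged to HOX genes, namely HOXA4, HOXA7, HOXA9, HOXA10, HOXB7 and HOXB13. The CpG ratio within the peaks had a median of 0.83 in the 18 peaks (range 0.48 to 1.31) and 0.80 in the others.

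**Figure D5:**
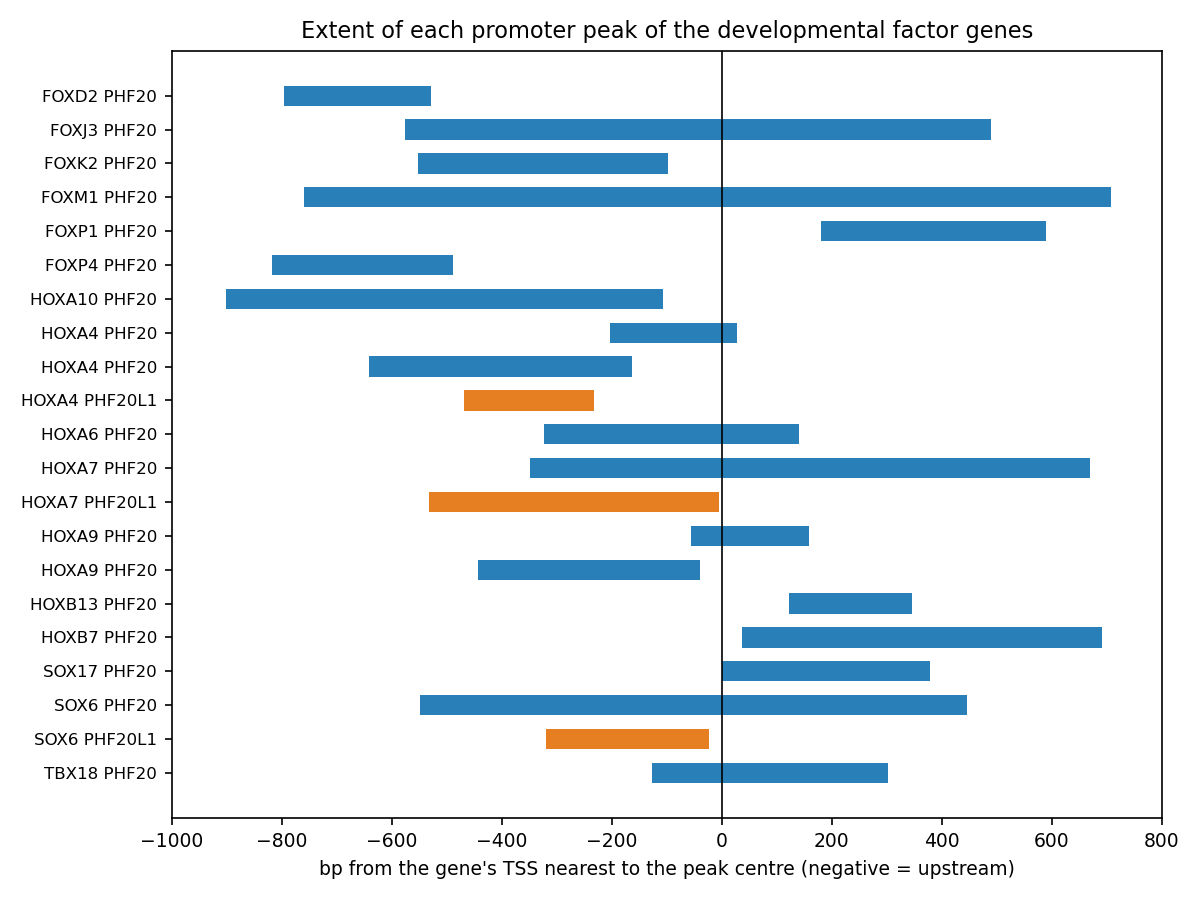
Extent of each PHF20 peak (blue) and PHF20L1 peak (orange) at the 16 bound genes, in bp from the TSS of the gene that is nearest to the peak centre, which for HOXA7 is not the same TSS for both proteins; negative values are upstream. The line at 0 crosses 8 of the 18 PHF20 bars and none of the 3 PHF20L1 bars.

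PHF20L1 accompanied PHF20 about as often at these genes as elsewhere, at 3 of the 16 genes bound by PHF20 (18.8%, 6.59% to 43.0%) and at 18.0% of other coding genes bound by PHF20 (16.9% to 19.2%). With 16 genes, a difference would have to be large to be seen.

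Words of 8 bp, chosen with earlier results of these peaks known, were counted on both strands in the canonical promoter regions. They were ACTTCCGG, which resembles the site of ETS factors, and CACGTGAC and the palindrome TCACGTGA, which contain the E-box CACGTG and overlap each other by 7 bases. For HOXA6, SOX6 and TBX18 the canonical region is not the one that holds the peak. ACTTCCGG was present at 3 of the 16 bound genes (18.8%, 6.59% to 43.0%), namely HOXA6, HOXB7 and HOXB13, and at 4 of 139 unbound ones (2.88%, 1.12% to 7.17%). In other coding genes it was present at 21.4% of those bound by PHF20, 5.32% of those unbound and 8.66% in all. CACGTGAC was present at 4 of the 16 (25%, 10.2% to 49.5%), namely FOXM1, HOXA7, HOXA9 and HOXB7, and at 8 of 139 unbound genes (5.76%, 2.94% to 10.9%), against 9.58% and 4.12% of bound and unbound other coding genes and 5.25% in all. Unbound genes with CACGTGAC included FOXD3, HOXC13, HOXD10 and NKX1-2. TCACGTGA was found at FOXM1 alone among the bound genes and at 4 unbound genes, HOXB3, HOXB4, HOXC5 and HOXD11, and at 2.38% of all other coding genes.

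Within the peaks themselves, CACGTGAC occurred 1 time at HOXA7 and 1 time at HOXA9, and ACTTCCGG 1 time at HOXB7. At FOXM1 a single palindromic stretch of chromosome 12, from 2877178 to 2877187, held CACGTGAC on each strand and TCACGTGA between them. The words are shown in capitals in 60 bp of the HOXA9 peak (hg38 chr7:27165578-27165637, minus strand) and of the HOXB7 peak (chr17:48610518-48610577, minus strand), since these are the 2 of the 4 genes where the surrounding bases lie outside untranslated regions.
HOXA9: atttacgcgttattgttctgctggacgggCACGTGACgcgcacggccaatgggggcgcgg
HOXB7: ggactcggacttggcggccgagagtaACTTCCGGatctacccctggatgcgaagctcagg
The HOXA9 word is centred close to the canonical TSS, on its upstream side, while the HOXB7 word lies in the gene, in a stretch that is partly coding. At HOXD10, which had no peak, the 120 bp before the TSS (chr2:176116658-176116777, plus strand) hold CACGTGAC as well, shown here with CpGs in capitals.
HOXD10: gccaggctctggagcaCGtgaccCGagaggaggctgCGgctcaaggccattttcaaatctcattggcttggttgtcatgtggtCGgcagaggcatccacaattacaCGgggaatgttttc
The same 8 bp thus stood before the TSS of a bound and of an unbound HOX gene.

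Of the 139 genes without a PHF20 promoter peak, 18 had a TSS within 10000 bp of a PHF20 peak (12.9%), against 4.98% of other unbound coding genes. Of these 18, 9 were among the 32 unbound HOX genes, in clusters that hold peaks, and 9 among the 107 genes outside HOX (8.41%). Just outside the promoter limit stood HOXA11 (549 bp from the peak edge, downstream) and TBX15, a factor of limb and skin, with a peak of 205 bp 642 bp downstream of a TSS. HOXA3, FOXB1 and FOXH1 followed, at 1657, 2157 and 2175 bp. The peak near HOXA3 is the one at HOXA6, and the peak near FOXH1 lies at the promoter of PPP1R16A. The median distance of the 139 genes was 161303 bp, and that of the other unbound coding genes was 144214 bp. The 10 unbound genes of highest CpG ratio, from 1.09 at FOXI3 and 1.07 at NKX6-2 down to 0.91 at NKX2-4, included TBX1, FOXC2, NKX1-1, FOXF1, FOXO3, FOXO1 and SOX12, and lay 11041 to 265166 bp from the nearest PHF20 peak.

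The authors kept reads that mapped to 1 position only, which can hide peaks at genes with copies. In 7 genes, FOXD4, FOXD4L1, FOXD4L3, FOXD4L4, FOXD4L5, FOXD4L6 and FOXO3B, fewer than 50% of the 50-mers of the canonical promoter region occurred once in hg38 (0% to 48.5%), and their lack of a peak says little. In 147 of the 155 genes at least 90% of them did. Without the 7 genes PHF20 bound 16 of 148 (10.8%), with 24.3% in genes of equal ratio. The latter share comes from all other coding genes, whose unique 50-mers were not counted.

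Gene lists of related function were set beside these families. Other developmental factors, defined by symbols such as DLX, GATA, IRX, POU and ZIC, had a PHF20 peak at 1 of 102 genes (0.98%, 0.173% to 5.35%), with 24.1% in genes of equal CpG ratio, and none of PHF20L1, which allows up to 2.94%. Among 27 ETS factors PHF20 bound 4 (14.8%, 5.92% to 32.5%), namely GABPA, ETV3, ELF2 and ELK4, with 18.8% in genes of equal ratio. Among 32 Polycomb subunits it bound 6 (18.8%, 8.89% to 35.3%), namely RBBP4, RBBP7, PCGF6, MTF2, EED and CBX8, with 29.5% in genes of equal ratio. Mitochondrial ribosomal proteins, a housekeeping list chosen with its high share in these peaks known, were bound in 67.9% (57.0% to 77.3%), with 27.5% in genes of equal ratio, and PHF20L1 bound 23.1% of them. The intervals of the ETS and Polycomb lists contained the share of genes of equal ratio, and those of the other developmental factors and the 155 genes lay below it.

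These numbers depended on which TSSs and which peaks were counted. With the outermost TSS of each gene alone PHF20 bound 10 of the 155 genes (6.45%, against 17.8% of all coding genes) and PHF20L1 1 (0.645% against 3.21%). With peaks below the median width of their list set aside PHF20 bound 6 (3.87% against 12.1%), namely FOXJ3, FOXM1, HOXA7, HOXA10, HOXB7 and SOX6. PHF20L1 then bound HOXA7 alone (0.645% against 2.11%).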

How the data were processed

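HA ChIP-Seq peaks of U2OS cells with ectopic PHF20 or PHF20L1 were analysed. Per the study's methods and the submitters' processing notes, reads were aligned by the authors with Bowtie 1.1.2 against hg38. They kept unique positions and 1 copy of duplicates, called peaks with MACS2 2.2.7.1 against input and removed blacklisted regions. A PHF20 replicate with few peaks was dropped. Signal varied among the replicates. A listed peak was called in the strongest replicate and overlapped peaks of the remaining ones, which were called at a looser p-value limit. The deposited values are positions in bp, with no score, count or depth, so weak and strong listed peaks cannot be told apart. A weak site can also be missing, and absence from a list does not show absence of the protein.

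Coordinates are 1-based, hg38. Genes came from GENCODE release 44, later than the authors' release. Overlap was at least 1 bp. CpG classes were deciles over coding genes and intervals are Wilson 95%. A count of 0 was given the share of 3 counts. Unique 50-mers were counted on both strands. Of 500 simulated peaks placed at promoter regions 500 were recovered, with 0 false calls among simulated peaks placed well outside them. This checks the overlap code only and says nothing about missed or false ChIP peaks. No set test was run. The software was numpy 2.4.6, scipy 1.17.1, pysam 0.24.0 and matplotlib 3.10.9 under Python 3.11.15, with samtools 1.23.1. Members, lists and words were chosen with earlier results of these data known. The rule named every bound member, the 5 unbound members nearest to a peak, the 10 unbound members of highest CpG ratio and up to 4 bound genes of widest peak per list. Other genes, such as HOX paralogues, carriers of the words and genes with copies, were named after their values were seen. Some genes are not reported here.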

Additional observations from a re-analysis of the deposited data

How the results depend on the processing

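No paired analysis was possible because each list of peaks was merged over replicates by the authors, and for the same reason no replicate could be left out. The PHF20 count of 16 genes became 10 with the outermost TSS (17.8% of all coding genes) and 6 with peaks below the median width set aside (12.1% of all coding genes), and for PHF20L1 the count of 3 became 1 in each of these and 1 without the HOXA cluster. In both cases the construction of the alternative, with fewer TSSs, peaks or genes, lowers the count. Other choices of TSS, region and peak gave 13 to 22 genes for PHF20, or 8.39% to 14.2%, where the shares over all coding genes were 13% to 21.4%, the lowest without peaks shared between coding promoters. Without HOXA 11 genes were left. The PHF20 share from other coding genes of equal CpG ratio, 23.9%, became 24.8% with the ratio taken over a shorter region of equal length on each side of the TSS, 22.6% over a still shorter region mostly upstream, 25.1% with the highest ratio of any TSS, 22.8% with the bases covered by promoter regions, 21.5% with GC content and 20% with the number of TSSs as a second class, and 22.4% at canonical TSSs. For PHF20L1 4.31% became 3.91% with covered bases, 3.59% with GC content, 3.43% with the number of TSSs and 3.93% at canonical TSSs. Where a share of genes of equal ratio was computed, the measured share was below it. No share of genes of equal ratio was computed for the outermost TSS, the other promoter regions or the choices of peaks. For PHF20L1 the measured share rests on 3 genes or fewer, and the 4.31% of the main setting lay inside its interval of 0.66% to 5.54%. The divisions by HOXA, by unique 50-mers and by the number of TSSs were chosen after the data were seen. The median peak width of 442 bp became 408 bp at canonical TSSs.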

Other observations

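The 14 NKX genes had a median ratio of 0.73 and the 9 HOXD genes of 0.82, and neither had a promoter peak, while the 11 HOXA genes with 0.74 had 5 bound. All 11 HOXA promoter regions met the limits for a CpG island over their whole length, as did 8 of 9 HOXD, 12 of 14 NKX, 4 of 10 HOXB and 4 of 9 HOXC regions. Over the whole cluster, coding and noncoding sequence included, the CpG ratio was 0.549 in HOXA, 0.523 in HOXD, 0.421 in HOXC and 0.396 in HOXB. The PHF20 peaks inside the HOXA cluster covered 4370 bp in all and those in HOXB, HOXD and HOXC covered 878, 232 and 0 bp.

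The single PHF20 peak of the HOXD cluster, on chromosome 2 from 176096349 to 176096580, had a CpG ratio of 0.53 and lay 3628 bp from a TSS of HOXD13 and 3215 bp from one of HOXD12. It overlapped no promoter region of a coding or noncoding gene.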
